A study of Mus musculus with 36 samples.

Results

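Core circles are the circular RNAs (circRNAs) that were found in nearly every sample of both brain regions, and they were chosen by a count above 0 in at least 16 of the 18 frontal cortex samples and in at least 16 of the 18 hippocampus samples. The rule took 679 circRNAs of the 33261 listed for either region, or 2.04%. Total RNA of the hippocampus and the frontal cortex had been sequenced at 6 time points of the light-dark cycle, with 3 biological replicates per region and time point and 36 samples in all. The animals were adult male mice, of the strain C57BL/6 in the labels and C57BL6/N in the study's methods, perfused before dissection and kept with lights on from clock hour 6 to 18, so that ZT1, ZT5 and ZT9 lie in the light phase and ZT13, ZT17 and ZT21 in the dark phase. The labels name no allele and no agent, and whether both regions came from the same animals is not given in the sources used here. The RNA was depleted of ribosomal RNA and came from whole dissected tissue, so fewer cells of a type and less RNA per cell cannot be told apart.

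A circRNA forms when the spliceosome joins the end of an exon to the start of the same exon or of one that lies upstream, which closes the RNA into a ring without free ends. Rings resist exonucleases, accumulate in neurons, which divide no more, and mostly stay in the cytoplasm. The best known circle of the brain, Cdr1as, binds the microRNA miR-7. Each circle has a single head-to-tail junction, and a circular read is a read that crosses it, so counts of junction reads do not grow with the length of the circle and can be compared between circles.

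The head-to-tail junction is the one stretch that sets a circle apart from the linear RNA of its host. For that reason the junctions of 8 of the 10 core circles with the most reads are shown. Those of 6 of the 10 circles named below for large differences between the regions follow them. The lower-case letters are the last 15 bases of the last exon in the circle, and the capitals are the first 15 bases of its first exon, which follow them in the ring (GENCODE M21 transcripts, GRCm38, sense strand).
Cdr1as, chromosome X, 61183248 to 61186174, plus strand: gtctgccgtatccagGGTTTCCAGTGGTGC
Gigyf2, chromosome 1, 87364104 to 87380008, plus strand, exons 4 to 8: gaagaaaagatgtagGCTCCGTGCTCTGTC
Slc8a1, chromosome 17, 81647809 to 81649638, minus strand, exon 2: gaacgatgaaatagtGTTGGAGCAGTTGGA
Ankib1, chromosome 5, 3747021 to 3772787, minus strand, exons 2 to 5: tgcttcgagctcacgAATGTGAAACATGTT
Dtnb, chromosome 12, 3617606 to 3648389, plus strand, exons 5 to 8: gagcattcctcttggTGAGGGCCGAGGCAA
Fat3, chromosome 9, 16374949 to 16378254, minus strand, exon 2: tagatgatgagagtgGACGGACATGTGATA
Kat6b, chromosome 14, 21516626 to 21517498, plus strand, exon 2: catgagaaagaccagGTCTTGGTTTCCTAA
Tcf20, chromosome 15, 82851513 to 82857284, minus strand, exon 2: atcgccagagagatgGAGGGCTGCTGGCCT
Zbtb20, chromosome 16, 43569681 to 43577748, plus strand, exons 10 to 13: ccgggtcatctgattATGCAGCCACTCTCT
Dock4, chromosome 12, 40668406 to 40676790, plus strand, exons 9 to 12: ctggctccaatgcagTGAGAGATTTTTCTT
Rfx3, chromosome 19, 27849711 to 27900903, minus strand, exons 4 to 6: gcctccccagcaacaAGACCATCATGCAGA
Arhgap10, chromosome 8, 77384751 to 77411128, minus strand, exons 9 to 12: cgagaccggaaggagGGCCTGCTCCATTTG
St6gal2, chromosome 17, 55490943 to 55498406, plus strand, exons 3 to 5: cttctggttttattgATTCTCATGATGCAG
Npas2, chromosome 1, 39263319 to 39300733, plus strand, exons 2 to 5: cttggacatttaccgCAGGCAAGACTGCAT

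The total of circular reads per sample was 6754 to 73252 in the hippocampus and 8107 to 34803 in frontal cortex. Among the highest and lowest totals, 3 libraries stood apart. Hippocampus ZT1 replicate 3 was the deepest, and hippocampus ZT13 replicate 1 and frontal cortex ZT9 replicate 3 were the shallowest of their regions. Across the 679 core circles, the Spearman correlation of the shallow libraries with the mean of the other 17 samples was 0.437 and 0.443. The other libraries of their regions, which share the normalization and differ in depth, had 0.768 to 0.904 and 0.651 to 0.854. The 0.651 was that of frontal cortex ZT1 replicate 2, the next shallowest of its region with 11871 reads. Core circles had a median of 3 reads in both shallow libraries, and the part of depth in these correlations was not tested. As a check of the region labels, circRNAs from hosts that mark the hippocampus, summed over 7 circles of 4 of the 10 listed hosts, took 0.074% to 0.303% of the circular reads of a hippocampus sample and 0% to 0.0761% of those of a frontal cortex sample. For a neocortex list the shares were 0% to 0.0821% and 0% to 0.108%, and of the lists for oligodendrocytes, astrocytes, microglia and endothelial cells no host had a circRNA that 2 replicates of a time point held.

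The study kept circRNAs that 2 or more replicates of a time point held, which was true of all 679 core circles in both regions, and they were 10.2% of the 6656 circRNAs that it keeps in either region. In every one of the 36 samples, 234 core circles were found. Exactly 16 samples of at least one region held 171 of them. These members just inside the rule had 121 to 675 circular reads over the 36 samples, with a median of 227, whereas the 147 circles just outside, found in at least 15 samples of both regions but short of the rule, had 102 to 574, with a median of 178. Just outside with many reads were a Pspc1 circle (390 reads), an Erbin circle (365 reads) and an Adcy1 circle (335 reads), each found in 18 hippocampus and 15 frontal cortex samples. A few abundant circRNAs were not core at all. A circle of Nell2 (chromosome 15, 95296159 to 95346887) had 2779 and 765 reads but was found in 8 hippocampus and 3 frontal cortex samples.

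More core circles were found in deeper samples. Hippocampus samples held 466 to 679 of them, with a median of 667, and frontal cortex samples held 478 to 678, with a median of 667.5. The lowest value of each region came from its shallow library, and hippocampus ZT1 replicate 3 held all 679. Core circles were 7.06% to 31.2% of the distinct circRNAs found in a hippocampus sample and 12.9% to 27.8% of those in a frontal cortex sample, and the deepest library had the lowest of these shares. The smallest count above 0 was 2, so a count of 0 does not separate no read from a single read.

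**Figure D1:**
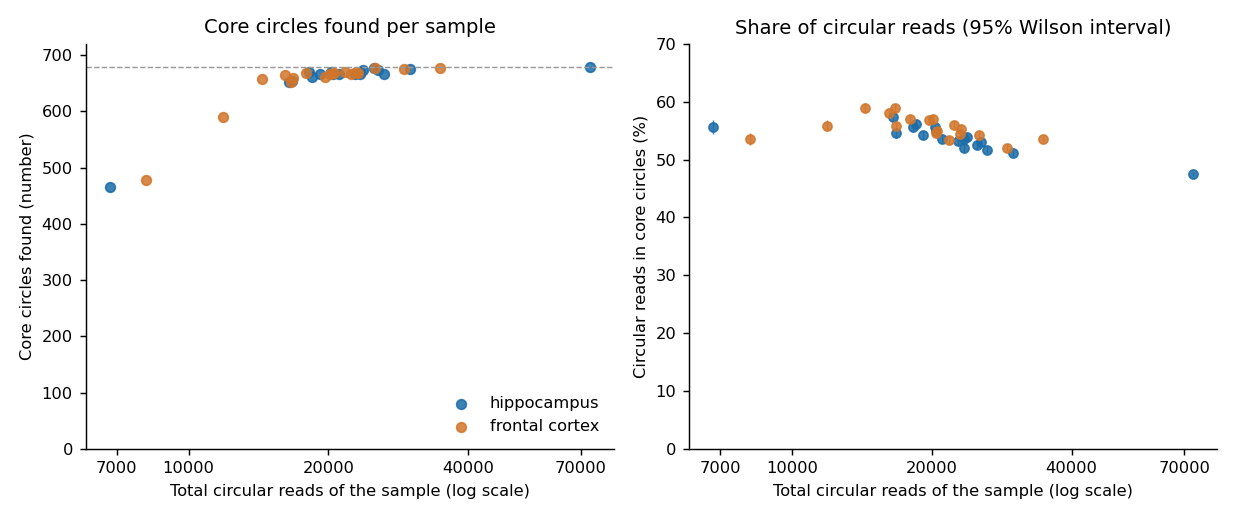
Left, the number of the 679 core circles found in each of the 36 samples, and right, the percent of circular reads in core circles with 95% Wilson intervals, both against the total of circular reads on a log scale. The samples with 6754 and 8107 reads held 466 and 478 core circles, and the share of reads stayed between 47.5% and 59.0%.

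Core circles held 427500 of the 793237 circular reads, or 53.9%. Their share per sample was 47.5% to 57.3% in the hippocampus, with a median of 53.8%, and 52.1% to 59.0% in frontal cortex, with a median of 55.6%. The ranges of both regions overlapped, and the lowest share was that of the deepest library. Of the 100 circRNAs with the most reads, 98 were core circles. The rule asks for detection in nearly all samples and so favors abundant circles, which makes these shares descriptions. The members themselves ranged from 121 reads, for a circle of Ano6, to 53168 reads, for Cdr1as, with a median of 340.

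Cdr1as, a single exon of 2927 nt in a non-coding gene on chromosome X, held 12.4% of all core reads and 6.48 times as many as the next circle. It had 24400 reads in the hippocampus and 28768 in frontal cortex. Next came Tulp4, which encodes a tubby-like protein, with 4917 and 3282 reads, and Gigyf2, a repressor of translation, with 4396 and 3209. Slc8a1, the sodium-calcium exchanger of the plasma membrane, had 2646 and 1779 reads, and Ankib1, which encodes a ubiquitin ligase, had 2610 and 1701. The dystrobrevin gene Dtnb had 2058 and 2040 reads, the atypical cadherin Fat3 had 1776 and 1909, the histone acetyltransferase gene Kat6b had 1775 and 1439, and the transcriptional coregulator Tcf20 had 1858 and 1256. One of the 10 most abundant core circles had no host, a circle of 35489 bases on the unplaced scaffold JH584304.1 with 1394 and 2440 reads. The 10 circles together held 22.4% of the core reads and the 100 with the most held 52.7%, so the abundance was spread over many members below Cdr1as. Across the 679 circles the Spearman correlation of reads between the regions was 0.839, where the circles share libraries and the rule.

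Most core circles followed annotated exons. Both ends lay on exon boundaries of one transcript for 620 circles, or 91.3%, against 83.5% of the circRNAs kept, a set that includes the core circles. For 17 further circles, the most abundant Tulp4 circle among them, both ends lay on exon boundaries but of no common transcript, 30 had one such end and 12 had none. A protein-coding gene on the same strand held 658 circles, and 4 had no gene on their strand. All lengths, exon numbers and introns below were read from the annotation for the 620 circles, since a junction read does not show which exons lie inside a ring.

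Like the circRNAs kept, the core circles were compact, and many started early in their genes. They held a median of 4 exons, with 421 circles (67.9%) of 2 to 5 exons, 58 (9.35%) of a single exon and 13 (2.10%) of more than 10. The circRNAs kept also had a median of 4 exons, and 65.8% of them had 2 to 5. Single exons were 5.45% and more than 10 exons 5.95% of the circRNAs kept. The median spliced length was 552.5 nt, with quartiles of 397 and 850 nt, and 569 nt for the circRNAs kept. The first exon of the circle was exon 2 of its transcript in 288 cases (46.5%), against 33.5% of the circRNAs kept. None held exon 1, which has no acceptor site at its start, and 2 held the last exon. The start codon of the host lay inside 124 circles (20%, against 16.7% of those kept), and 470 (75.8%, against 80.2% of those kept) were coding sequence throughout. These shares describe sets that differ in abundance, and no test was made. Of the circRNAs with enough reads for the test between the regions, 46.4% began at exon 2 and 9.35% were single exons.

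**Figure D2:**
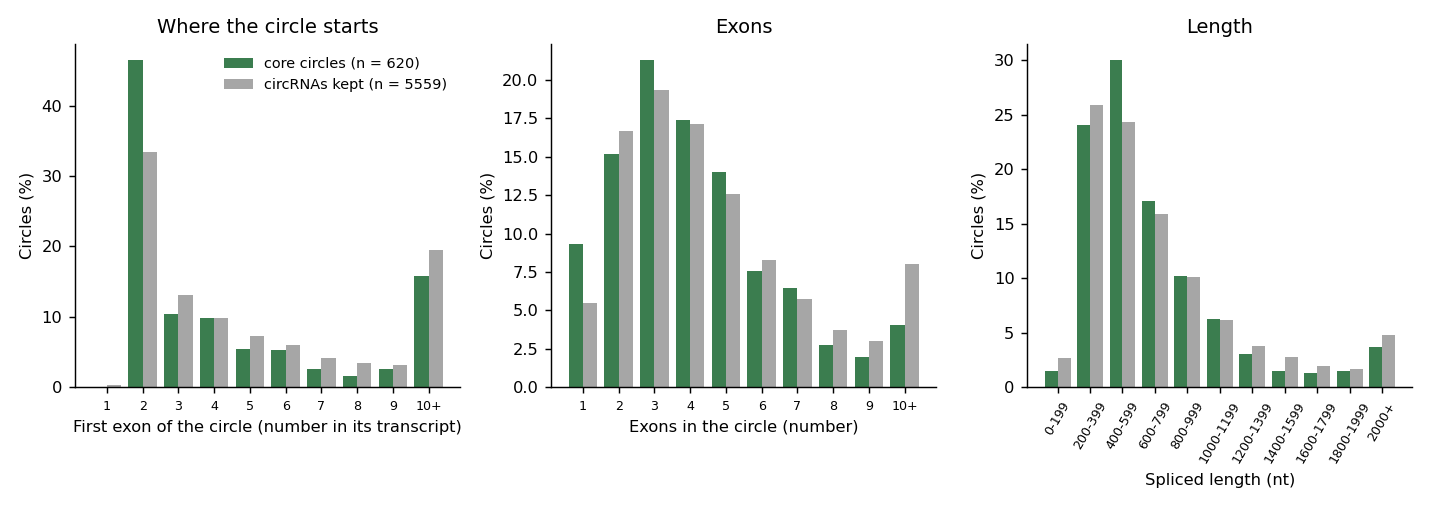
Percent of circles by the number of their first exon in the transcript, by their number of exons and by their spliced length in nt, for 620 core circles and 5559 circRNAs kept that follow exon boundaries of one transcript. The bar at exon 2 reaches 46.5% for core circles and 33.5% for the circRNAs kept, and the lengths largely coincide.

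Long introns flanked the core circles. The median intron upstream was 17904 nt and downstream 16762 nt, against 13211 nt and 10905 nt for the circRNAs kept, and both introns were longer than 10000 nt around 333 core circles (53.7%) and 37.6% of the circRNAs kept. Among the circRNAs with enough reads for the test between the regions, most of which are core, the median introns were 18194 and 18201 nt, and both were longer than 10000 nt for 54.2%. The span on the genome had a median of 12751 bases and passed 100000 bases for 20 core circles. Among the longest spans were those of Erc2 (276972 bases, exons 13 to 19), a scaffold protein of the presynaptic active zone, and Atxn1 (258755 bases, exons 2 to 6), the gene of ataxin-1. Their spliced lengths of 852 and 568 nt were not unusual. Among the shortest spans was that of Med13l (238 bases, exon 2), a subunit gene of the Mediator kinase module. The Med13l circle was abundant, with 1266 and 1077 reads. The longest spliced length was that of exons 2 to 3 of Tcf20 with 5866 nt, and a circle of Smarca1, a chromatin remodeler, held the most exons, 22 of the 24 in its transcript.

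The 679 circles came from 485 hosts, of which 370 gave a single core circle. The other 115 hosts gave 305 circles, and 18 of them gave 4 or more. Most circles came from Rere, which encodes a transcriptional corepressor, and from Stk39, a kinase of the cation-chloride cotransporters, with 7 each, followed by Atrnl1 with 6. Of the core circles, 235 shared a start or an end with another. Of the 7 circles of Stk39, 5 began at exon 2. Cdr1as also shared an end with another core circle, which began further upstream, at 61181550, and had 312 reads. Hosts of core circles gave 2312 circRNAs kept, and 1637 of these were not core.

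Among circles that share an end, the split of reads between them was similar in both regions for some pairs and less so for others. The pairs named here are examples. In an Erc2 pair the longer circle took 74.0% of the reads in the hippocampus and 83.0% in frontal cortex. In a Pi4ka pair the shorter circle took 68.3% and 59.6%, and single samples of both pairs overlapped between the regions. For the active-zone gene Rims1 the circle from 22346293 to 22379540 took 47.6% of the reads of its pair with the circle ending at 22393948 over all hippocampus samples and 53.4% over all frontal cortex samples, with 33.3% to 69.4% and 43.5% to 100% in single samples. For Crebrf the shares were 55.3% and 56.6%, for Mboat2, an acyltransferase gene, 68.7% and 68.7%, and for Rasa2, a Ras GTPase-activating protein, 68.7% and 71.1%. For Dtnb the circle of exons 5 to 8 took 84.1% of its pair with exons 5 to 9 in the hippocampus and 77.5% in frontal cortex, with single samples at 77% to 100% and 56% to 84.5%, so the ranges overlapped.

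Hosts with roles at the synapse gave 38 core circles of 19 genes, 5.60% of the core and 4.27% of the circRNAs kept. Rims1, Rims2, Erc2 and Pclo act in the presynaptic release zone, and Homer1, Dlgap1, Shank3 and Anks1b in the postsynaptic scaffold. Chromatin and transcription gave 29 circles of 17 genes, 4.27% of the core and 2.82% of those kept. Kinases and phosphatases gave 19 circles of 10 genes (2.80% and 2.22%), ubiquitin enzymes 12 circles of 10 genes (1.77% and 1.59%), and RNA-binding and splicing proteins 7 circles of 7 genes (1.03% and 1.32%). No set was tested, and a longer gene can give more circles.

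Cdr1as stood alone among the core circles in sites for miR-7. The mature microRNA, with its seed of bases 2 to 8 in capitals (RefSeq), is given here because the count below rests on it.
mmu-miR-7a-5p: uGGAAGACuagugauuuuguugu
The seed match GTCTTCC was searched on the sense strand of the spliced circle, across the junction. Cdr1as held 123 matches, or 42.0 per 1000 nt. Of the 620 core circles with a spliced sequence, 41 held at least 1 match, or 6.61%, against 6.51% of the 5558 circRNAs kept with a sequence. No other core circle held more than 2, a count reached by circles of Runx2, Plcl2, R3hcc1l and Wscd2, and the core circles other than Cdr1as held 0.0976 matches per 1000 nt. A match is a string of letters and was not tested as a binding site.

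Over all 18 samples of a region, the spread was wider than counting error for most members. Counts were normalized by the TMM method, which scales each sample to a common set of circRNAs, and are given on the scale of the mean of the 36 samples. The coefficient of variation (CV) over the 18 samples of a region had a median of 40.2% in the hippocampus and 42.7% in frontal cortex, where counting alone would give 33.6% and 35.6%. The median ratio of CV to counting CV was 1.23 and 1.24, with upper quartiles of 1.42 and 1.41. Within time points the median CV was 39.0% and 41.8%. Part of the spread came from the shallow libraries. The median CV was 35.5% without hippocampus ZT13 replicate 1 and 38.9% without frontal cortex ZT9 replicate 3. The value from counting alone was not recalculated without these libraries. The rule asks for detection in nearly all samples and thereby limits the spread, so these are descriptions. Among the 100 core circles with the most reads the median CV was 23.3% and 24.7%.

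The steadiest circles by the mean CV of both regions were Gigyf2 (9.91% in the hippocampus and 10.3% in frontal cortex), Kat6b (9.28% and 14.6%) and the Rims1 circle of exons 30 to 32 (16.1% and 13.2%). This order depends on the scaling. With counts scaled to total circular reads, the CV of Gigyf2 was 8.95% and 19.2%. That of Tulp4 was then lower on average, at 14.3% and 8.44%. The order also depends on the shallow libraries. Without them, the CV of normalized counts was 7.98% and 8.55% for Gigyf2 and 9.79% and 5.47% for Tulp4. The normalized count of Gigyf2 was 170 to 272 in the hippocampus, with a median of 221, and 156 to 244 in frontal cortex, with a median of 197. Cdr1as was less steady than its depth allows, with a CV of 21.1% and 30.0% where counting alone would give 2.94% and 2.61%. Its normalized counts were 496 to 1687 in the hippocampus, with a median of 1200, and 291 to 2347 in frontal cortex, with a median of 1951. Both low ends came from the shallow libraries, and the other 17 samples held 987 to 1687 and 1104 to 2347, with a CV of 15.1% and 21.3%. The circle on scaffold JH584304.1 had a CV of 66.9% and 60.8%, with 0 to 214 in the hippocampus and 19.2 to 281 in frontal cortex.

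In the least steady circles the shallow libraries held many of the extreme values. A circle of Ptms, the parathymosin gene (chromosome 6, 124914408 to 124914704), had the highest mean CV, 82.7% in the hippocampus and 120% in frontal cortex. In hippocampus ZT13 replicate 1 its normalized count was 59.7, against 6.15 to 19.2 in the other 17, and in frontal cortex ZT9 replicate 3 it was 128, against 7.92 to 28.4. Without these libraries its CV was 34.4% and 35.1%. A circle of Pi4ka, a phosphatidylinositol kinase gene, had a CV of 87.2% in the hippocampus and 40.1% without the shallow library, and 59.5% and 59.1% in frontal cortex. A circle of Agtpbp1, a tubulin deglutamylase gene, was unsteady throughout, with 70% and 60.2% in the hippocampus and 88.3% and 89.1% in frontal cortex, at 87 and 83 reads in all. The shallow libraries held the highest normalized count of their region for 86 and 95 members and the lowest for 283 and 275, against at most 55 and 116 in any other library. The part of depth in this was not tested.

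**Figure D3:**
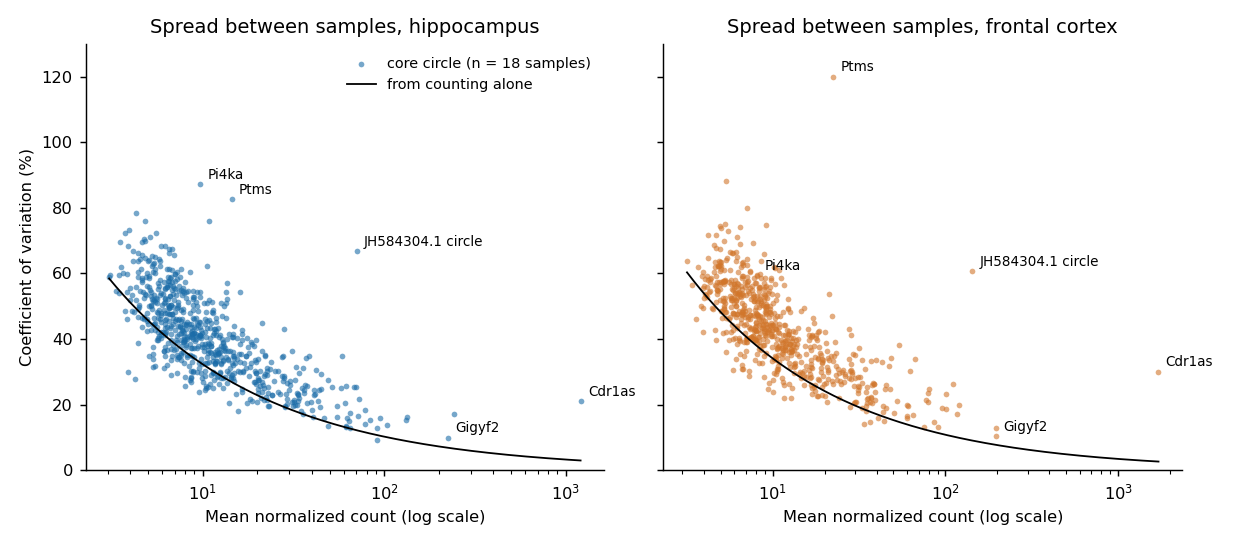
Coefficient of variation in percent over 18 samples against the mean normalized count on a log scale, one point per core circle and one panel per region, with the line that counting alone would give. Points follow the line downward, and Cdr1as at 21.1% and 30.0%, the scaffold circle at 66.9% and 60.8%, and Ptms at 82.7% and 120% lie far above it.

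The comparison of the regions asked whether core circles, present in both by their choice, differed in level. Of the 710 circRNAs with enough reads for edgeR's filter, 217 (30.6%) differed between the hippocampus and the frontal cortex at an adjusted p of 0.05. The core circles among them numbered 578, and 157 of these (27.2%) differed. Since core circles make up most of this background, the 132 other circRNAs tested are given as well, of which 60 (45.5%) differed. Higher in the hippocampus were 81 core circles (background 16.5%) and higher in frontal cortex 76 (background 14.1%). The other 101 core circles, with 121 to 245 reads, did not pass the filter and were not tested. Differences were small for most members. Within 1.5-fold lay 474 of the 578 (82.0%, against 72.5% of all circRNAs tested), the 5th and 95th percentiles of the log2 fold change were -0.74 and 0.73, and 22 core circles passed the test with more than a 2-fold difference, 11 in each direction. The rule requires detection in both regions and so bounds this ratio. The filter on reads can be met by either region alone, so a core circle could enter through the region where it was higher. The counts of differing circles are therefore descriptions. Without the 3 libraries that stood apart, 79 core circles were higher in the hippocampus and 84 in frontal cortex.

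In 107 of the 157 core circles called, the direction was the same at all 6 time points. The call rests on the mean over these same time points and so favors such agreement, which is a description. The 18 samples of one region lay apart from the 18 of the other for 5 core circles, against 9 (1.27%) of the 710 circRNAs tested. Higher in every hippocampus sample were circles of Arhgap12, Tshz2, Nfix and Elf2, and higher in every frontal cortex sample was the Dtnb circle of exons 5 to 9.

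**Figure D4:**
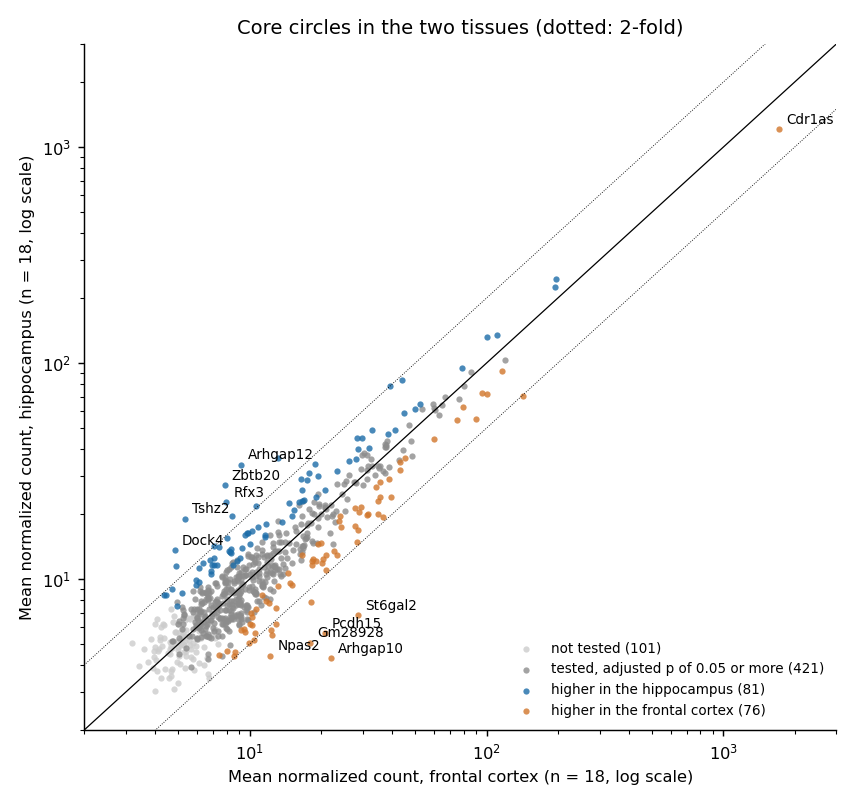
Mean normalized count of each of the 679 core circles in frontal cortex and in the hippocampus (n = 18 each, log scales), with the line of equal levels and dotted lines at 2-fold. The 81 circles higher in the hippocampus and the 76 higher in frontal cortex lie on both sides of the line, and few of them pass 2-fold.

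Toward the hippocampus, the 5 largest differences were those of Arhgap12, Tshz2, Zbtb20, Dock4 and Rfx3. Circles of Tshz2 and Dock4 had too few reads to be tested over the day in frontal cortex. They entered this test through the region where they were higher, so their rank and p-values are descriptions. The circle of Arhgap12, a GTPase-activating protein (chromosome 18, 6111685 to 6115850, exons 2 to 3), had normalized counts of 18.4 to 44.6 in the hippocampus, with a median of 36.6, and of 4.24 to 15.4 in frontal cortex, with a median of 8.39. The samples did not overlap, and the log2 fold change was 1.90 (SE 0.14, edgeR adjusted p = 1.99e-12). The circle of Tshz2, a zinc finger gene (chromosome 2, 169883526 to 169886459), had 11.4 to 29.8 with a median of 19.0 and 0 to 10.01 with a median of 5.57. Its samples did not overlap either, with a log2 fold change of 1.74 (SE 0.20, edgeR adjusted p = 1.77e-08). Zbtb20 encodes a transcription factor of hippocampal projection neurons and was among the hippocampus markers listed. Its circle had 11.5 to 45.1 with a median of 26.0 against 0 to 13.9 with a median of 8.12, and the ranges overlapped at their edges (log2 fold change 1.73, SE 0.19, edgeR adjusted p = 7.81e-09). Dock4, an exchange factor for Rac, had a circle at 0 to 28.5 with a median of 12.6 against 0 to 11.2 with a median of 4.66 (log2 fold change 1.53, SE 0.25, edgeR adjusted p = 1.60e-05). For Rfx3, a transcription factor of ciliary genes, the values were 2.25 to 34.9 with a median of 23.3 and 0 to 15.2 with a median of 7.66 (log2 fold change 1.503, SE 0.19, edgeR adjusted p = 7.60e-08). The ranges of Dock4 and Rfx3 overlapped. All 5 circles were higher in the hippocampus at 6 of 6 time points, which their choice by the largest mean difference favors.

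Toward the frontal cortex, the largest difference was that of Arhgap10, which encodes a GTPase-activating protein, followed by St6gal2, Pcdh15, Gm28928 and Npas2. All 5 circles had too few hippocampus reads to be tested over the day in that region and entered this test through frontal cortex. Their order and p-values are therefore descriptions. The Arhgap10 circle had normalized counts of 0 to 13.8 in the hippocampus, with a median of 2.96, and of 11.1 to 57.0 in frontal cortex, with a median of 20.9 (log2 fold change -2.47, SE 0.24, edgeR adjusted p = 4.45e-10). The ranges overlapped only through the highest hippocampus value, which came from the shallow library, as the other 17 hippocampus samples reached 9.02. St6gal2, a sialyltransferase gene, had a circle at 0 to 13.6 with a median of 7.57 against 6.11 to 38.9 with a median of 29.1 (log2 fold change -2.14, SE 0.17, edgeR adjusted p = 3.34e-12). For Pcdh15, a protocadherin gene, a circle of 861 bases with no end on an exon boundary had 0 to 11.3 with a median of 6.15 and 8.14 to 35.6 with a median of 21.5 (log2 fold change -1.95, SE 0.22, edgeR adjusted p = 5.97e-09). The circle of the long non-coding RNA gene Gm28928 had 0 to 10.5 with a median of 4.36 and 8.23 to 40.7 with a median of 16.5 (log2 fold change -1.90, SE 0.22, edgeR adjusted p = 1.55e-08). Npas2 encodes a clock transcription factor that pairs with Bmal1, and its circle had 0 to 7.76 with a median of 4.90 and 0 to 25.4 with a median of 10.7 (log2 fold change -1.49, SE 0.26, edgeR adjusted p = 4.09e-05). The ranges of these 4 circles overlapped as well. For St6gal2 the overlap came only from the shallow frontal cortex library, as the other 17 frontal cortex samples held 17.7 to 38.9. Each of the 5 was lower in the hippocampus at 6 of 6 time points, which their choice likewise favors. Without the libraries that stood apart, the 10 fold changes of this and the preceding group moved little, for example to -2.40 for Arhgap10 and 1.64 for Tshz2.

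**Figure D5:**
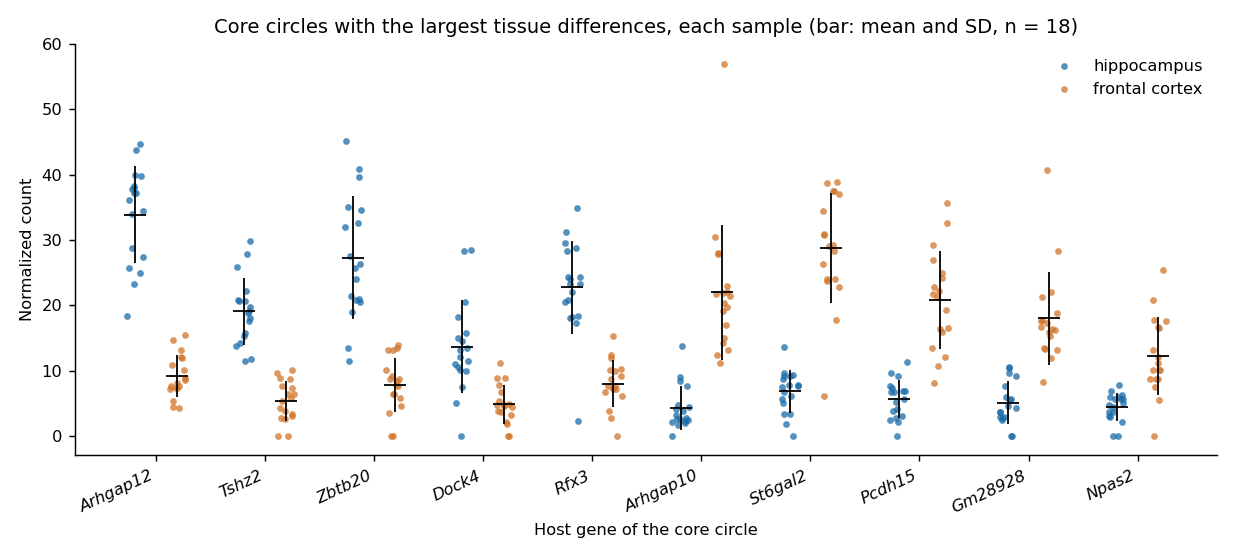
Normalized counts of each of the 36 samples for the 10 core circles with the largest tissue differences, with mean and SD (n = 18). Arhgap12 and Tshz2 show no overlap between the regions, and the single Arhgap10 value of 57.0 in frontal cortex comes from ZT9 replicate 3.

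Among the abundant circles the differences were smaller and went both ways. Cdr1as had a mean normalized count of 1209 ± 255 (SD, n = 18) in the hippocampus and 1710 ± 513 (SD, n = 18) in frontal cortex, with overlapping samples, and a log2 fold change of -0.49 (SE 0.14, edgeR adjusted p = 0.00684). It was higher in the hippocampus at 1 of the 6 time points, ZT17. Without the libraries that stood apart the value was -0.53 (edgeR adjusted p = 1.51e-07). With same-numbered samples of both regions paired at each time point, the edgeR adjusted p was 0.0504. Unlike Cdr1as, circles of Tulp4 (log2 fold change 0.31), Ankib1 (0.39), Slc8a1 (0.29), Tcf20 (0.27) and Gigyf2 (0.20) were higher in the hippocampus. For Tcf20 and Gigyf2 the edgeR adjusted p was 0.044 and 0.0374, and it rose above 0.05 for Tcf20 without frontal cortex ZT1 replicate 3, ZT9 replicate 1, hippocampus ZT5 replicate 3 or ZT13 replicate 2, and for Gigyf2 without frontal cortex ZT9 replicate 1, ZT13 replicate 1 or hippocampus ZT13 replicate 2. Higher in frontal cortex were Fat3 (-0.34) and the scaffold circle (-0.94, and -0.72 with an edgeR adjusted p of 0.0535 without frontal cortex ZT5 replicate 1). For Kat6b (0.09, SE 0.08) and the abundant Dtnb circle (-0.22, SE 0.10) no difference passed the test, with edgeR adjusted p-values of 0.447 and 0.091. Without frontal cortex ZT9 replicate 3 the Dtnb circle passed, at -0.26 (edgeR adjusted p = 0.0122). The Nfix circle of exon 2, from a nuclear factor I transcription factor gene, was one of the abundant circles with a large difference, with 1547 and 644 reads and a log2 fold change of 1.02 (SE 0.10, edgeR adjusted p = 4.15e-10).

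Several hosts gave more than one core circle that differed between the regions. Of the 96 hosts with at least 2 core circles tested, 15 had at least 2 that passed the test, and in 14 of these all pointed the same way. Over the 248 circles of these hosts the SD of the log2 fold change was 0.39, and within hosts the pooled SD was 0.26, where the median standard error was 0.19. Circles that share exons or an end also share sequence, but not the junction read. All 4 core circles of Slc8a1 were higher in the hippocampus. The abundant circle of exon 2 had a log2 fold change of 0.29, and the circles that begin at exon 3 and end at exon 9, 10 or 11 had 0.76, 0.88 and 1.28. Of the 5 tested circles of Rere, the one of exons 2 to 4 passed the test at 1.05, and the others lay between 0.08 and 0.34. For Stk39, 1 of 7 passed the test, the circle of exons 2 to 16 at -1.17, and the other values were -0.44 to -0.11. In Atrnl1, which encodes an attractin-like membrane protein, 3 circles around exons 20 to 26 passed the test at -0.83 to -0.65, and the circle of exons 2 to 9 had 0.19 (SE 0.32).

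The counts in the host lists stand beside the background of 16.5% higher and 14.1% lower in the hippocampus over all circRNAs tested, and no list was tested. In them, 4 of 32 tested circles of synaptic hosts were higher in the hippocampus and 7 were higher in frontal cortex, with a median log2 fold change of -0.10 against 0.02 over all circRNAs tested. Both circles of the postsynaptic scaffold gene Dlgap1 were higher in the hippocampus, at 0.66 and 0.69, as were a circle of the adhesion gene Tenm3 at 0.93 and one of Nlgn1 at 0.57. Circles of the presynaptic genes Rims1 (-0.45 and -0.38), Rims2 (-0.39) and Erc2 (-0.60), of Homer1 (-0.67), Dlg1 (-0.37) and Anks1b (-0.34) were higher in frontal cortex. Of 26 tested circles of chromatin and transcription hosts, 6 were higher in the hippocampus, among them both of the ETS factor Elf2 at 0.91 and 0.61, and 2 were lower, with a median of 0.17. For ubiquitin hosts 3 of 10 were higher and 1 lower, for kinases and phosphatases 2 of 15 were higher and 2 lower, and for RNA-binding hosts 1 of 6 was higher and 1 lower.

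Time of day was the other axis of the design. Between the dark and the light phase, none of the 506 core circles tested in the hippocampus and none of the 474 in frontal cortex passed the edgeR test, where the background over all circRNAs tested was 0.0% in both. Without adjustment, 21 and 13 core circles had a p under 0.05, and DESeq2 called 0 in both. Over the 6 time points 0 core circles passed in either region, with a background of 0.0% in the hippocampus and 0.193% in frontal cortex, with 17 and 7 at an unadjusted p under 0.05, and with 0 by DESeq2. The median size of the log2 fold change between the phases was 0.16 in the hippocampus and 0.17 in frontal cortex. The core circles that were not tested, 173 in the hippocampus and 205 in frontal cortex, had too few reads. Without a filter on low counts, Cdr1as passed between the phases in the hippocampus and over time in both regions, and the scaffold circle passed over time in both.

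The members nearest to a difference over the day were varied in function. Smarca1 had a log2 fold change from light to dark of -0.93 (SE 0.30, edgeR adjusted p = 0.703) in the hippocampus and -0.48 (SE 0.25) in frontal cortex, and the fucosyltransferase gene Fut8 had -0.72 (SE 0.24) and 0.23 (SE 0.34). In the frontal cortex, the Kansl1 circle of exons 4 to 7, from a subunit gene of a histone acetyltransferase complex, had 0.73 (SE 0.24, edgeR adjusted p = 0.993), and Ppp2r2c, a phosphatase subunit gene, had -0.58 (SE 0.19). Over time, Fbxw4 had the smallest p in the hippocampus (edgeR adjusted p = 0.999) and Tox, an HMG-box gene, had one of the smallest in frontal cortex (edgeR adjusted p = 0.996). The Npas2 circle had -0.41 (SE 0.32) between the phases in frontal cortex and was not tested in the hippocampus.

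For Cdr1as the hippocampal mean normalized count in the light phase was 1362 ± 149 at ZT1, 1311 ± 178 at ZT5 and 1316 ± 324 at ZT9, and in the dark phase 897 ± 364 at ZT13, 1277 ± 73.2 at ZT17 and 1093 ± 126 at ZT21 (SD, n = 3 each). The low mean at ZT13 included the shallow library, with 496. In the frontal cortex the light-phase means were 2042 ± 52.6 at ZT1, 1891 ± 484 at ZT5 and 1424 ± 981 at ZT9, the dark-phase means were 1722 ± 263 at ZT13, 1237 ± 209 at ZT17 and 1946 ± 408 at ZT21 (SD, n = 3 each), and the ZT9 mean included the other shallow library, with 291. The log2 fold change from light to dark was -0.29 (SE 0.12, edgeR adjusted p = 0.925) in the hippocampus and -0.16 (SE 0.23, edgeR adjusted p = 0.993) in frontal cortex, so neither passed the test.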

How the data were processed

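The authors deposited a table per region with the counts of circular reads of each circRNA in each sample. Per the study's methods, single-end reads of total RNA were mapped to GRCm38 with BWA, and head-to-tail junctions were called with CIRI2 at default parameters. The deposited counts are not normalized or pooled. The hippocampus table has 1 column beyond the 18 samples, which was not used. Sequenced read totals and linear counts were not used here. Groups came from the labels.

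Members, host lists and tests were chosen with earlier results of these data known. The test was that of edgeR 4.0.16 under R 4.3.3, over circRNAs that 2 or more replicates of a time point held (TMM, filterByExpr, quasi-likelihood test, Benjamini-Hochberg over all circRNAs tested, threshold 0.05). The region contrast averaged 6 time points in one fit of 36 samples, and phase and time were fitted per region over 18 samples. The scripts were tested on simulated data. P-values measure the spread between these samples. A change shared by all circRNAs is removed by TMM. No 2 columns were identical, and no pair of replicates differed by less than sampling noise.

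Exons, transcripts and hosts came from GENCODE M21 (GRCm38), with the smallest gene that holds the circle as host where no transcript matched. Wilson 95% intervals cover counting error only, and precision is limited by the totals given. Named were Cdr1as, the 10 members with the most reads, 5 per direction with the largest tested tissue difference, 3 with the lowest and highest CV, 3 with the shortest and longest span, 2 with the smallest p per phase or time test, hosts with 2 or more members, up to 5 circles just outside the rule, up to 3 abundant non-members and list members. The Nfix, Elf2 and exon 5 to 9 Dtnb circles, Ano6, Smarca1 and the longest spliced circle were named after their values were seen. Some results are not reported here. Alternatives were other normalizations, DESeq2 1.42.0, no filter, a replicate block, other detection rules and leaving out samples. In the region test the replicate block paired same-numbered samples of both regions at each time point. In the phase and time tests it was the replicate number. Tables came from pandas 2.3.3 with numpy 2.4.6 under Python 3.11.15, intervals from scipy 1.17.1 and plots from matplotlib 3.10.9.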

Additional observations from a re-analysis of the deposited data

Results flagged for a closer look

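Within the 9 samples of one phase and region, a sample was listed where its gap to the next exceeded the critical value of Dixon's test at 95%. There were 152 such comparisons, over the number and share of core circles, the share of Cdr1as and the normalized counts of the 35 named circles. Of these, 26 gave a sample, where chance gives about 1 in 20 for independent comparisons. These comparisons share libraries, and some circles were named for a high CV, so that rate does not hold for this set. Of the 26, 18 were the 2 shallow libraries, and no cause was tested.

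In hippocampus ZT13 replicate 1, 466 core circles were found, and the share of Cdr1as in all circular reads was 3.20%. Its normalized count was low for Cdr1as (496), Tulp4 (106), Dtnb (64.3), Erc2 (4.59) and Fut8 (0), and high for Pi4ka (41.3) and Ptms (59.7). In frontal cortex ZT9 replicate 3, 478 core circles were found, and the share of Cdr1as was 1.76%. There the normalized count was low for Cdr1as (291), Tulp4 (106) and Ankib1 (22.4), and high for Slc8a1 (218), Arhgap10 (57.0), Gm28928 (40.7) and Ptms (128).

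In other libraries, 8 values stood out. High were Dtnb in frontal cortex ZT17 replicate 2 (173), the scaffold circle in hippocampus ZT13 replicate 2 (214), Tshz2 in hippocampus ZT17 replicate 2 (29.8), Fut8 in frontal cortex ZT21 replicate 1 (22.9) and Kansl1 in hippocampus ZT21 replicate 1 (28.2). Low were Rfx3 in hippocampus ZT21 replicate 1 (2.25), and Med13l (42.6) and Tox (7.10) in frontal cortex ZT1 replicate 2.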

How the results depend on the processing

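The number of core circles rests on depth and on the rule. It was 234 when all 18 samples of each region had to hold a circle, 973 with at least 14, 480 with a count of at least 3 and 372 with all samples thinned at random to 6754 reads, and leaving out 1 sample gave 679 to 734. Counted over circRNAs kept, the median share of reads in core circles was 61.6% in the hippocampus and 64.5% in frontal cortex, and without Cdr1as it was 50.8% and 51.8%.

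Without a filter on low counts, 52 core circles were higher in the hippocampus and 34 lower, 1 was lower in the dark phase in the hippocampus, and 2 passed over time in each region. The other normalizations, DESeq2, tissue alone in the model and the fit without the 3 libraries that stood apart, which was chosen after seeing the data, gave 77 to 86 higher and 68 to 84 lower, and leaving out 1 sample gave 73 to 93 and 57 to 82. No value reversed.

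Same-numbered replicates of both regions deviated with correlations of -0.17 to 0.15. Counting error makes up much of these deviations, so they cannot show whether the numbers pair animals. With same-numbered samples of both regions paired as a block at each time point, 71 core circles were higher in the hippocampus and 63 lower. In that fit, Cdr1as had an edgeR adjusted p of 0.0504. Of the named tissue differences, Gigyf2 (adjusted p up to 0.0595 in 5 settings), Tcf20 (0.0741 in 7), the scaffold circle (0.0535 without frontal cortex ZT5 replicate 1) and Fat3 (0.114 without the filter) also missed the threshold in some, whereas Dtnb passed with DESeq2, without frontal cortex ZT9 replicate 3, and without the libraries that stood apart. Depth left 101 core circles untested between the regions.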
